A study of Mus musculus with 2 samples.

Results

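Immediate-early response genes are transcribed within minutes of a stimulus, without new protein synthesis, and are among the first genes to move when a cell is stressed, wounded or taken out of its tissue. The set described here holds 35 of the 32285 mouse genes counted in the series. They were given as a list of gene symbols and were not chosen by a measured contrast, although earlier results of these data were known by then. They were found by symbol in the gene lists of both libraries, where all 35 were present. Every one of them is listed below with its levels, although Npas4, at 16 unique transcripts in both libraries together, was too rare to compare.

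The study measured single brain cells of mice that were homozygous for human APOE, either E3 or E4, placed by knock-in at the mouse Apoe locus and driven by the mouse promoter. All mice were female and 11 to 12 months old, and the only labelled difference between the groups was the APOE allele. Right hemispheres without brainstem and cerebellum of 3 mice per genotype were pooled before dissociation, so that each genotype is 1 library and the mice of a pool cannot be told apart. Both pools were perfused with cold saline, cut up on a chilled dish, digested with enzymes on a heated instrument in a 37 degree program, cleared of debris, filtered and loaded on a 10x Genomics Chromium droplet instrument. Cells that a library of this kind holds are those that survive the digestion, and the labels call them non-neuronal brain cells. No library was made without warm digestion. The level of an immediate-early gene in the living brain and the level gained during dissociation can therefore not be told apart in either library, and a difference between E4 and E3 cannot be told apart from a difference between the pools in handling, time or library preparation.

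Most of the products of these genes act on transcription or switch signals off again. Growth factors, cytokines, calcium entry, shear and cell damage activate kinase cascades, which phosphorylate factors that already sit at the promoters of these genes. The first transcripts code for transcription factors such as the FOS and JUN families, which pair as AP-1, the EGR zinc finger proteins and the NR4A nuclear receptors. A second set codes for inhibitors that end the response, among them the phosphatases DUSP1 and DUSP6, the cytokine signal inhibitor SOCS3, the NF-kB inhibitor encoded by Nfkbia and the RNA-decay protein TTP encoded by Zfp36. In neurons Fos, Arc and Npas4 serve as marks of recent activity. In microglia, the resident immune cells of the brain, and in macrophages the same genes are known to be switched on by enzymatic dissociation.

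The bases before the start of such genes hold sites for the factors that are in place before the stimulus. The stretches of Dusp1 and Zfp36 overlapped an annotated gene and were left out, and 3 stretches, of Fos, Junb and Btg2, are shown. Each is the 180 bases before the start of the gene in RefSeq on GRCm38.p6, read 5′ to 3′ along the gene. None overlaps an annotated gene. Capitals mark TGACG, the core of the site bound by CREB and ATF factors, its palindromic full form TGACGTCA, and TATAA, the letters of a TATA box.
Fos, chr12:85473710-85473889, plus strand: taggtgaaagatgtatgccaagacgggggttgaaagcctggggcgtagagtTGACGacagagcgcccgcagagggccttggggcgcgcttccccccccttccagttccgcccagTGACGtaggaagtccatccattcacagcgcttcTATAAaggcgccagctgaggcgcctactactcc
Junb, chr8:84978749-84978928, minus strand: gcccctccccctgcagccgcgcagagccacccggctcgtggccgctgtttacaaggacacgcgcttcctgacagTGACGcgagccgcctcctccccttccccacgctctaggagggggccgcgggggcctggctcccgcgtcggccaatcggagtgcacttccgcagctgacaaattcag
Btg2, chr1:134079156-134079335, minus strand: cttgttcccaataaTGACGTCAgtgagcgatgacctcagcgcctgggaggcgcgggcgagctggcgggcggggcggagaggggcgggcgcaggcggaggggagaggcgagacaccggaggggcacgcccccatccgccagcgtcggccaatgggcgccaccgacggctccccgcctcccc
In Fos the letters TGACG began 129 and 66 bases before the start and TATAA began 33 bases before it. In Junb TGACG began 106 bases before the start, and in Btg2 the full palindrome began 166 bases before it.

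RefSeq windows were held for 26 of the 35 genes, and Egr1, Egr3, Ier2, Nfkbiz, Gem, Rgs1, Arc, Cebpd and Myc had none. In the 250 bases before the start, TGACG was found on either strand in 16 of the 26 genes (61.5%), against 19.8% of all 27025 genes with such a window. TGACGTCA, which contains TGACG, was found in 3 of them, Btg2, Dusp1 and Maff, against 1.77% of all genes. The CArG box, the site of serum response factor, was found in Egr2 and Zfp36 and in 1.62% of all genes. TATAA was found in 8 of the 26 against 18.4% of all genes. These are counts of letters in a window and say nothing of which factor was bound in these cells.

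The genes were also short. Among the 34 with enough counts, the median length from start to end was 4.90 kb, against 24.9 kb over 14502 protein-coding genes measured in the same cells, and 30 of the 34 lay below that median. Their longest transcripts held a median of 3 exons against 8, again with 30 of 34 below the median, whereas the transcripts themselves were closer to the rest, at 2.79 kb against 3.41 kb. The shortest was Ier3 at 1.24 kb. The longest was Dusp1 at 56.5 kb as annotated. By chromosome, 5 of the genes lay on chromosome 1, 4 each on chromosomes 4, 8 and 15, and 3 on chromosome 12.

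The files hold counts of unique molecular identifiers (UMIs), which tag each captured transcript once, so that copies made by amplification are not counted again. The E3 library held 11485 cell barcodes and the E4 library 13802, and the limits on UMIs and mitochondrial share that the study states kept 11288 and 13528 cells with medians of 3804 and 4102 UMIs. Both libraries carried 46 barcodes in common. Leaving those cells out, and clustering the rest anew, turned the direction of no ratio that stood past the fold used below. It moved 4 of the ratios by more than their intervals, and the 1 that is described below is given both ways. Cells were clustered with the 35 genes left out, so that these genes did not shape the groups, and 27 of 31 clusters could be named from marker genes as 11 classes. The names end in "-like" because they were rebuilt from markers. Of the kept cells, 5.52% stayed unnamed. A level is the number of UMIs of a gene per 1000000 UMIs of a class in 1 library, written CPM. The neuronal markers summed to 51.2 CPM in E3 against 39.6 CPM in E4 over all cells, and no cluster was named neuronal. Because the 3′ ends of transcripts were counted, and because capture differs from gene to gene, levels are compared between classes and libraries for the same gene and not between genes. Intervals are exact 95% intervals that cover counting error only, and with 1 library per genotype no test and no p-value is given.

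Macrophage-like and microglia-like cells held by far the highest levels of the set. Summed over the 35 genes, macrophage-like cells stood at 21038 CPM in E3 (20673 to 21409) and 22829 CPM in E4 (22467 to 23194). Microglia-like cells followed with 13928 CPM in E3 (13864 to 13993) and 16870.2 CPM in E4 (16811 to 16929), so that the leading class was 1.51-fold above the next in E3 and 1.35-fold in E4. Both are immune cells, and both stood apart from the rest. Endothelial-like cells, which line the vessels, stood at 7058.5 and 7328 CPM, and meningeal-like cells at 3749 and 3415 CPM. Ependymal-like cells, which line the ventricles, stood at 2792 and 2836 CPM. Oligodendrocyte-like cells, which make myelin, had 1954 and 2685 CPM, and neuroprogenitor-like cells 1700.0 and 3069.9 CPM. The lowest levels were those of astrocyte-like cells (891 and 906 CPM), erythroid-like cells (747 and 804 CPM) and choroid plexus-like cells (680 and 824 CPM). In erythroid-like cells haemoglobin genes took 885779 CPM in E3 and 861709 CPM in E4, which leaves little room for any other gene. Over 7 alternatives, other totals among them, the erythroid-like sum ran from 138 to 8106 CPM in E3 and from 141 to 6835 CPM in E4. The place of this class in the order thus depends on the total used. Mural-like cells, the contractile cells of vessels, stood at 6028 and 7429 CPM, but with 92 E3 and 198 E4 cells they fell below the 100 cells per library required here and are given only where they bear on a result.

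**Figure D1:**
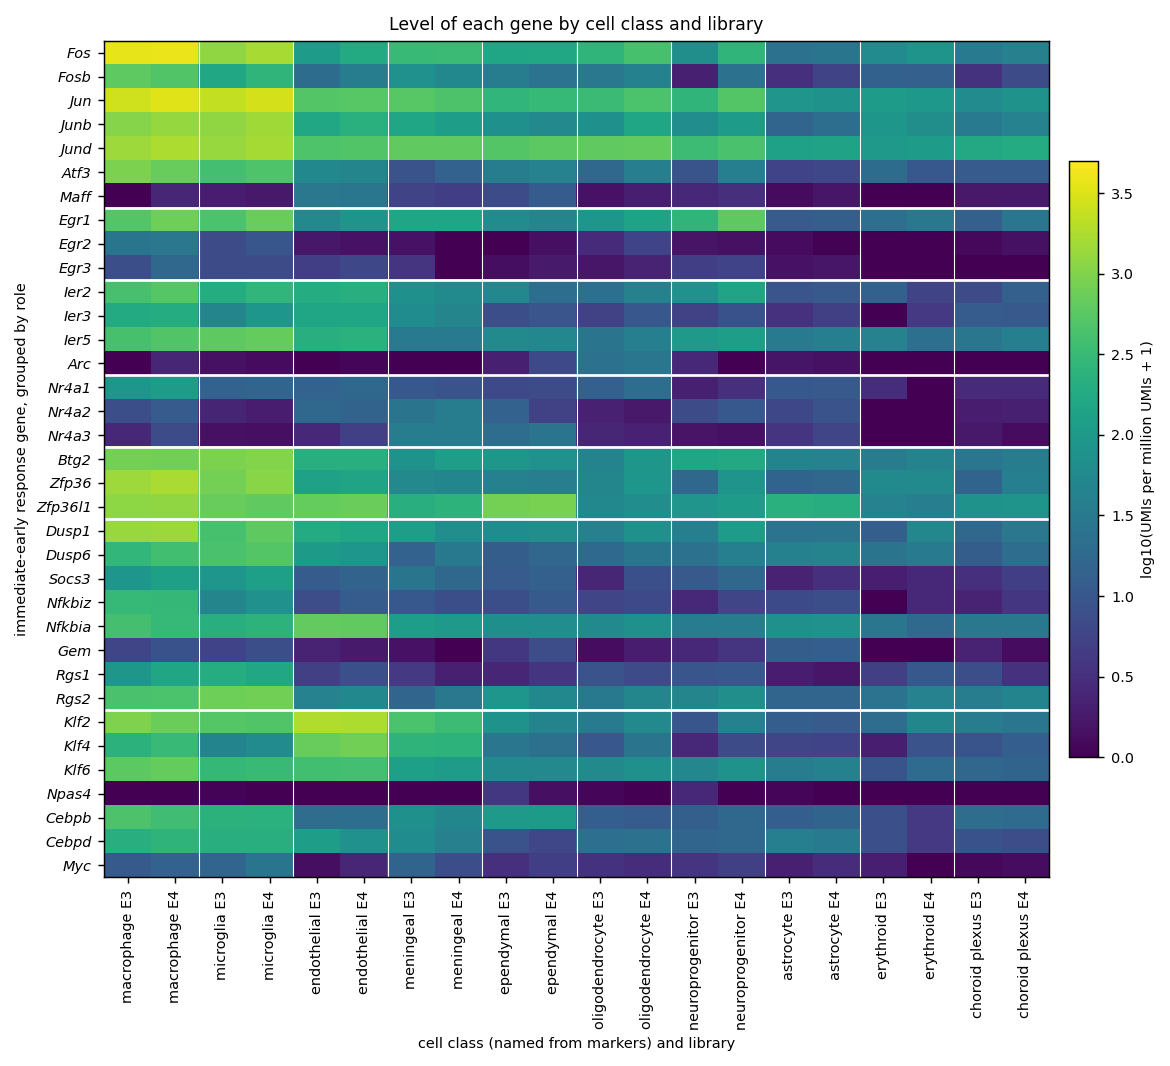
Level of each of the 35 genes (rows, grouped by role between white lines) in the 10 classes of at least 100 cells per library (columns, E3 and E4 side by side), as log10 of CPM plus 1. Macrophage-like and microglia-like columns are brightest in most rows, Klf2, Klf4 and Nfkbia are brightest in endothelial-like cells, and Arc stands out in oligodendrocyte-like cells.

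Which genes belong to 1 class was read from a plain rule, namely that the same class had the highest level in both libraries and was at least 2-fold above the next class in each. Of the 34 genes with enough counts, 33 had the same leading class in both libraries, and 8 passed the 2-fold rule (23.5%). Of all 16144 genes measured, 30.1% passed it. How the set compares with all genes depends on the fold and on the classes, since at 1.5-fold 18 of the 34 passed beside 42.4% of all genes, and among classes of at least 200 cells per library, which leaves out macrophage-like cells, 22 passed beside 34.6%. Macrophage-like cells led 18 of the genes and microglia-like cells 7, endothelial-like cells led 4, meningeal-like cells 2, and astrocyte-like and oligodendrocyte-like cells 1 each. The share of all genes led by each class was not computed, nor that with the same leading class in both libraries. Those counts therefore describe the members and show nothing particular to the set.

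The AP-1 genes were highest in the immune classes. Fos, the partner of the JUN proteins, reached 3703 CPM in E3 and 3946 CPM in E4 macrophage-like cells, against 1211 and 1665 CPM in microglia-like cells. It passed the 2-fold rule, at 3.06-fold over the next class in E3 and 2.37-fold in E4. In astrocyte-like cells Fos stood at 23.8 and 26.4 CPM, and in mural-like cells at 1084 and 1532 CPM. Fosb, its close relative, stood at 609 and 503 CPM in macrophage-like cells and 163 and 263 CPM in microglia-like cells, which was 3.73-fold in E3 but 1.91-fold in E4. Jun was nearly as high in microglia-like cells (2299 and 2929 CPM) as in macrophage-like cells (2685 and 3293 CPM). Junb was higher in microglia-like cells, at 1213 and 1492 CPM against 1079 and 1320 CPM. Jund, the family member that is known to be made without a stimulus, was spread most evenly, with 1459 and 1736 CPM in macrophage-like cells, 629.9 and 650.2 CPM in oligodendrocyte-like cells and 129 and 136 CPM in astrocyte-like cells. Atf3, a stress-induced factor of the same leucine zipper class, stood at 930.4 and 680.2 CPM in macrophage-like cells and 397 and 485 CPM in microglia-like cells. Maff, a small MAF protein, departed from the rest of the group. It was led by endothelial-like cells, at 28.2 and 27.5 CPM, while macrophage-like cells held 0 UMIs of it in E3 and 1 in E4.

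Egr1 was the EGR gene with by far the most UMIs. It stood at 519 and 752 CPM in macrophage-like cells and 449 and 723 CPM in microglia-like cells, and unlike most of the set it was also high in neuroprogenitor-like cells, at 261 and 595 CPM. Egr2, which is needed for myelin genes in peripheral nerve and for macrophage states, was led by macrophage-like cells at 26.7 and 28.5 CPM, against 6.22 and 8.66 CPM in microglia-like cells. It passed the 2-fold rule but was not among the 6 genes that did so after thinning. Egr3 was rare. Its highest level was 6.67 CPM in E3 and 16.5 CPM in E4, both in macrophage-like cells, and its E3 level was close to the 6.14 CPM of microglia-like cells.

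The 3 Ier genes, small early genes that share little but their name, had different patterns. Ier2 stood at 424 and 529 CPM in macrophage-like cells, with endothelial-like cells at 194 and 218 CPM. Ier3, which protects cells from death signals, was nearly as high in endothelial-like cells (154 and 149.8 CPM) as in macrophage-like cells (183 and 197 CPM). Ier5 was highest in microglia-like cells, at 597 and 673 CPM.

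Arc, which neurons use to remodel synapses after activity, was the only gene led by oligodendrocyte-like cells. It stood there at 23.6 CPM in E3 (19.8 to 27.8) and 27.1 CPM in E4 (23.5 to 31.1), from 140 and 202 UMIs. These were 140 of the 161 Arc UMIs of the E3 library and 202 of the 230 of the E4 library. Among the other classes the highest level was 1.64 CPM in E3, in neuroprogenitor-like cells, and 5.58 CPM in E4, in ependymal-like cells. Arc lay at similar levels in the 2 largest oligodendrocyte-like clusters, at 25.9 and 28.7 CPM in one and 22.9 and 28.5 CPM in the other, and was one of the leading genes of a small cluster of 47 E3 and 84 E4 cells, where it stood at 28.7 and 28.5 CPM. In the remaining cluster, of 51 E3 and 87 E4 cells, it stood at 5.54 and 17.2 CPM. Before thinning, 12.8% of E3 and 15.9% of E4 oligodendrocyte-like cells held an Arc UMI, and at 1000 UMIs per cell 2.02% and 2.93% did, while 0 thinned erythroid-like cells did, with exact upper bounds of 2.68% and 3.59%. Most erythroid-like UMIs were of haemoglobin genes, so these bounds are no like-for-like comparison. The summed neuronal markers stood at 18.9 CPM in E3 against 18.2 CPM in E4 oligodendrocyte-like cells, against 768 and 620.4 CPM in neuroprogenitor-like cells, where Arc had 3 UMIs in E3 and 0 in E4.

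The NR4A receptors, which bind DNA without a known ligand, split by class. Nr4a1 was led by macrophage-like cells at 86.7 CPM in E3 (64.8 to 114) and 105 CPM in E4 (81.9 to 133), against at most 13.7 CPM in E3 and 20.9 CPM in E4 in the other classes of sufficient size. Mural-like cells, too few for the rule, stood at 97.2 and 125 CPM, so that Nr4a1 was shared by those vessel cells. Nr4a2 and Nr4a3 were highest outside the immune cells. Nr4a2 stood at 25.8 and 34.8 CPM in meningeal-like cells and at 1.40 and 0.91 CPM in microglia-like cells. Nr4a3 stood at 36.1 and 36.5 CPM in meningeal-like cells, at 20.3 and 25.8 CPM in ependymal-like cells, and at 0.47 and 0.43 CPM in microglia-like cells. In macrophage-like cells Nr4a2 stood at 6.67 and 10.5 CPM and Nr4a3 at 1.67 and 6.01 CPM, from 4 and 7 UMIs of the first and 1 and 4 of the second.

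The genes for RNA decay and growth arrest followed the immune cells, with 1 exception. Btg2, which slows the cell cycle and recruits deadenylases, stood at 946 and 1041 CPM in microglia-like cells and 837 and 826 CPM in macrophage-like cells, and at 793 and 927 CPM in mural-like cells. Zfp36 stood at 1456 and 1712 CPM in macrophage-like cells and 837 and 1096 CPM in microglia-like cells. Its relative Zfp36l1 was the exception. Ependymal-like cells held 837 and 897 CPM of it, the second-highest level after the 1167 and 1221 CPM of macrophage-like cells, and in astrocyte-like cells, at 223 and 202 CPM, it was the member with the most UMIs.

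Of the inhibitors that end a response, Dusp1 and Nfkbiz passed the 2-fold rule in macrophage-like cells, although Dusp1 did not pass it without Scrublet doublets or after thinning. Dusp1, which inactivates stress-activated kinases, stood there at 1357 and 1404 CPM, against 421 and 610.2 CPM in microglia-like cells. Nfkbiz, a nuclear partner of NF-kB, stood at 295 and 289.8 CPM against 47.2 and 74.5 CPM. Dusp6, which inactivates ERK, was highest in microglia-like cells at 438 and 519 CPM. Socs3 was the only gene whose leading class differed between the libraries, since it stood at 87.7 and 121 CPM in microglia-like cells and 86.7 and 126 CPM in macrophage-like cells, with overlapping intervals in both libraries. Nfkbia was led by endothelial-like cells, at 643 and 619 CPM. Rgs1 and Rgs2, which shorten G-protein signals, were highest in microglia-like cells, at 194 and 161 CPM for Rgs1 and 772 and 826 CPM for Rgs2. Gem, a small GTPase that damps calcium channels, was the only member with its peak in astrocyte-like cells, where E3 had 11.4 CPM (9.68 to 13.3) and E4 had 11.6 CPM (9.94 to 13.4), against 5.00 and 7.51 CPM in macrophage-like cells.

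Among the remaining transcription factors, the Krüppel-like factors Klf2 and Klf4 were highest in endothelial-like cells and Klf6 in macrophage-like cells, and of the 3 only Klf4 passed the 2-fold rule. Klf2, which blood flow induces in vessel walls, stood at 1825 and 1756 CPM in endothelial-like cells, 1.91-fold over macrophage-like cells in E3 and 2.40-fold in E4. Klf4, also flow-responsive, stood at 697 and 816 CPM and passed the rule, with 255 CPM in meningeal-like cells next in E3 and 312 CPM in macrophage-like cells next in E4. Klf6 was higher in macrophage-like cells, at 587 and 662 CPM against 374 and 392 CPM in endothelial-like cells. Cebpb and Cebpd, factors of the acute phase response, were both highest in macrophage-like cells, at 462 and 362 CPM for Cebpb and 217 and 257 CPM for Cebpd. Cebpb was also high in ependymal-like cells, at 98.4 and 102 CPM, where Cebpd stood at 7.74 and 5.15 CPM. Myc stood at 15.1 and 26.7 CPM in microglia-like cells. Npas4, a neuronal activity gene, had 15 UMIs in E3 and 1 in E4, of which 8 in E3 and 1 in E4 were in ependymal-like cells.

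How many of the genes a single cell carried was compared after thinning each cell to 1000 UMIs, since deeper cells show more genes, and leaving out shallower cells. In macrophage-like cells a median of 9 of the 35 genes had a UMI in E3 and 7 in E4, with the middle of the distribution (the 10th to 90th percentile) running from 1 to 16 and from 1 to 15. In microglia-like cells the median was 5 in both libraries, from 1 to 13 in E3 and from 1 to 15 in E4. In endothelial-like cells it was 4 in both, from 2 to 7. Of the endothelial-like cells, 1.14% in E3 and 0.94% in E4 held none of the genes. Cells with at least 10 of the genes made up 44.7% and 37.3% of macrophage-like cells, 23.5% and 28.7% of microglia-like cells, and 2.50% and 2.88% of endothelial-like cells. In astrocyte-like cells the median was 1, and 43.6% and 43.9% held none.

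**Figure D2:**
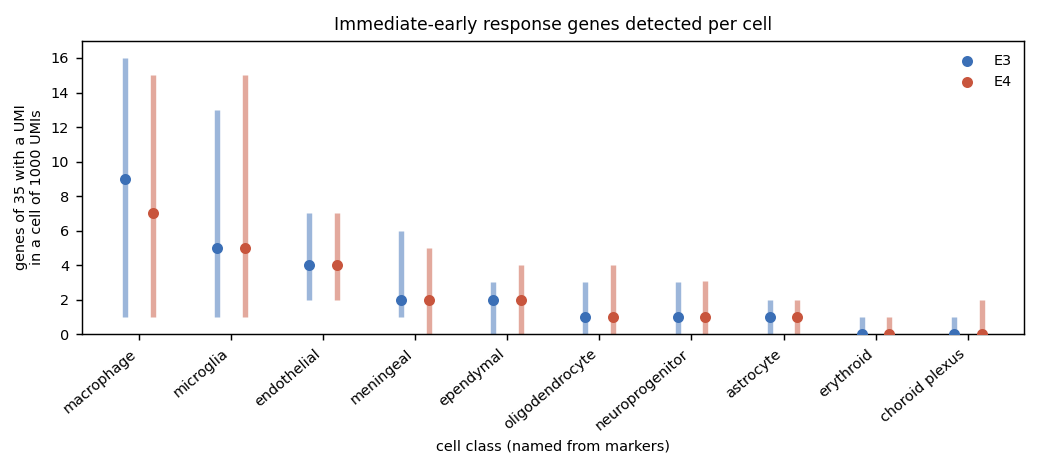
Number of the 35 genes with a UMI in a cell thinned to 1000 UMIs (vertical axis) for each class and library, where points are medians over cells and bars run from the 10th to the 90th percentile. Macrophage-like cells stand at medians of 9 and 7 and microglia-like cells at 5 and 5 with wide bars, while endothelial-like bars run from 2 to 7 and choroid plexus-like and erythroid-like medians lie at 0.

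Shares of cells with a UMI also count RNA set free from other cells, and the shares in erythroid-like cells are given beside them. Haemoglobin genes took 885779 CPM in E3 and 861709 CPM in E4 erythroid-like cells, so few of their 1000 UMIs were of other genes. Their shares are therefore no like-for-like floor for free RNA. At 1000 UMIs per cell, Fos was found in 27.1% of E3 (25.6 to 28.7%) and 32.6% of E4 (31.1 to 34.1%) microglia-like cells, in 56.7% and 52.2% of macrophage-like cells, and in 2.20% and 2.39% of astrocyte-like cells. In erythroid-like cells it was found in 2.21% (0.46 to 6.31%) and 0.99% (0.03 to 5.39%), with median depths before thinning of 6693 and 4742 UMIs against 3261 and 3423 in astrocyte-like cells. At this depth the astrocyte-like share could not be told from the erythroid-like one, which, given the haemoglobin UMIs, does not show how much of it was free RNA. Without the cells that held at least 10 UMIs of 9 microglial markers, described further on, Fos had 330 and 367 UMIs in astrocyte-like cells (23.6 and 23.7 CPM). It had 3 and 0 UMIs in erythroid-like cells (3.32 and 0 CPM of a total that is mostly haemoglobin). Before thinning the Fos shares were 35.1% and 41.5% in microglia-like, 58.5% and 51.3% in macrophage-like, 6.49% and 6.50% in astrocyte-like, and 5.52% and 0.88% in erythroid-like cells. Klf2 was found in 75.9% and 75% of thinned endothelial-like cells (96.1% and 94.5% before thinning) and in 2.21% and 2.97% of thinned erythroid-like cells. Jun was found in 54.2% and 57.6% of thinned microglia-like cells, against 7.66% and 6.04% of astrocyte-like cells and 2.94% and 3.96% of erythroid-like cells.

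Within microglia-like cells the set was carried by 1 cluster. Although the 35 genes had been left out of the clustering, a cluster of 1057 E3 and 1305 E4 cells formed, led by the chemokines Ccl4 and Ccl3 together with Atf3 and Fosb. Its summed level was 30794 CPM in E3 against 37300.2 CPM in E4. The largest microglia-like cluster, with 1961 and 2286 cells and led by Slc2a5, P2ry12, Siglech and Fcrls, stood at 5550.2 and 6259 CPM. The smallest, of 251 and 374 cells, stood at 8688 and 9653 CPM. For Fos the chemokine cluster held 3285 and 4342 CPM against 154 and 233 CPM in the largest cluster. For Atf3 it held 1107 and 1282 CPM against 53.7 and 59.4 CPM, and for Klf2 1396 and 1249 CPM against 81.4 and 80.5 CPM. Rgs1 differed less, at 309 and 252 CPM against 143 and 121 CPM. The heat shock and chaperone genes, which answer to protein damage and raised temperature, summed to 4270.5 and 4073 CPM in the chemokine cluster and to 4092 and 4153 CPM in the largest cluster, so that they did not separate these cells.

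**Figure D3:**
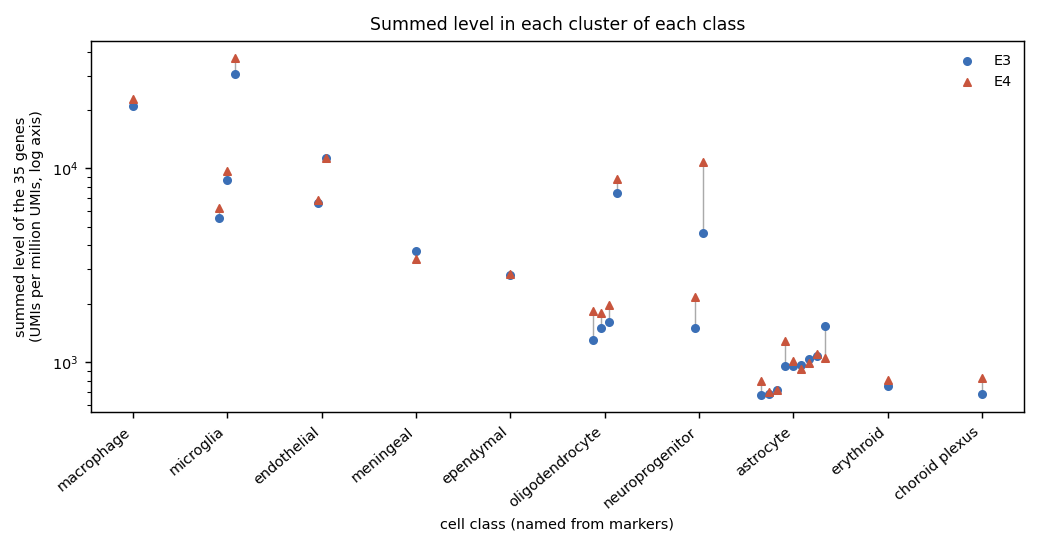
Summed level of the 35 genes (CPM, log axis) in each cluster of at least 10 cells per library, by class, with E3 as circles and E4 as triangles joined by a line. One microglia-like cluster stands at 30794 and 37300.2 CPM, above macrophage-like cells, and single small clusters of oligodendrocyte-like and neuroprogenitor-like cells stand apart from the rest of their class.

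Single clusters stood apart in other classes as well. Of the 4 oligodendrocyte-like clusters, the one of 47 E3 and 84 E4 cells stood at 7445 and 8777 CPM, while the others ran from 1299 to 1603 CPM in E3 and from 1795 to 1955 CPM in E4. In neuroprogenitor-like cells a cluster of 15 and 24 cells stood at 4626 and 10767 CPM, against 1491 and 2166 CPM in the rest. In endothelial-like cells a cluster of 59 and 89 cells stood at 11338 and 11361 CPM, against 6627 and 6827 CPM. Astrocyte-like clusters were low throughout, and those of at least 10 cells per library ran from 671 to 1526 CPM in E3 and from 694 to 1275 CPM in E4. Markers of microglia moved with these small clusters. Cells outside the immune classes that held at least 10 UMIs of 9 microglial marker genes carried 7382 and 8724 CPM of the set among oligodendrocyte-like cells, 4626 and 10395 CPM among neuroprogenitor-like cells and 2529 and 3573 CPM among choroid plexus-like cells. Without such cells the summed level was 1516 and 1853 CPM in oligodendrocyte-like, 1491 and 2150.3 CPM in neuroprogenitor-like, 455 and 409 CPM in choroid plexus-like and 138 and 141 CPM in erythroid-like cells. In endothelial-like cells it stayed at 6601 and 6822 CPM, and in astrocyte-like cells at 884 and 893 CPM. That step was added after the data had been seen, and whether those cells are doublets, cells with adhering RNA or cells of that type was not tested.

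**Figure D4:**
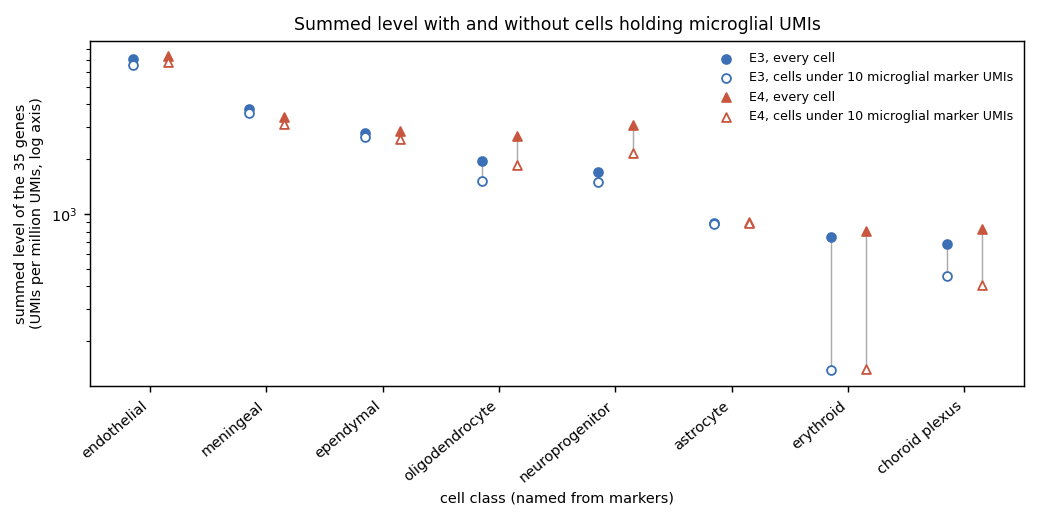
Summed level of the 35 genes (CPM, log axis) by class, with every cell (filled) and without cells that held at least 10 UMIs of the 9 microglial markers (open), E3 as circles and E4 as triangles. Erythroid-like cells drop from 747 and 804 CPM to 138 and 141 CPM, while astrocyte-like and endothelial-like cells stay nearly in place.

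Across microglia-like cells the genes varied together. Of 231 pairs of members found in enough cells, 229 were positively correlated in both libraries (Pearson's r over 3192 E3 and 3944 E4 thinned cells), with a median r of 0.21 in E3 and 0.23 in E4. The closest pairs were Jun with Jund (r = 0.68 and 0.74), Fos with Jun (0.66 and 0.70) and Fos with Egr1 (0.63 and 0.67). All these cells share a library, a digestion and a common depth, so the values describe these suspensions. The cells also take in the chemokine cluster and the clusters of far lower summed level, and whether the pairs were positive within a cluster was not tested. The share of positive pairs among genes outside the set was not computed, so the counts of pairs show nothing particular to the set. In endothelial-like cells 80 of 120 pairs were positive in both libraries and the closest, Jun with Zfp36, reached 0.21 and 0.22. In astrocyte-like cells, where 6 pairs could be computed, the median was 0.01 in both.

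The genes outside the set that followed its summed level most closely across microglia-like cells were Rhob (r = 0.55 in both libraries), itself an early gene, Gm26532 (0.52 and 0.56) and the histone variant gene H3f3b (0.53 and 0.52). They were followed by Hist1h1c, Hist1h1e, Kctd12, Cited2, Txnip and Ccl4, of which Ccl4 stood at 0.28 and 0.23. The heat shock genes did not follow, with Hspa1a at 0.05 and 0.07, Hspa1b at 0.01 in both and Hspa8 at 0.01 and 0.00. In endothelial-like cells Rhob again came first, at 0.18 and 0.14, and was followed by Trem2 (0.16 and 0.14) and Cx3cr1 (0.15 and 0.13), which are markers of microglia. C1qb, Tmem119, Gm26532, C1qc, Ctsd and Adamts1 came after them. In astrocyte-like cells the closest, Mfge8 and Ptn, stood at 0.08 in the library with the lower value.

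Between the libraries, the set stood higher in E4 than in E3. In what follows a ratio is the level in E4 over that in E3 on the log2 scale, for members with 50 UMIs or more in the class when both libraries are added. A member that is low in one library can pass this minimum through the other alone, so the counts describe these libraries and support nothing further. Over all cells 33 of 34 members were higher in E4, as were 9582 of all 16277 genes measured. The median ratio was 0.36 over the members against 0.04 over all genes. A fold is counted when the level was at least 25% higher in E4 or, the same fold downwards, at least 20% lower. Of the 34, 19 were at least 25% higher and 0 that much lower, while of all genes measured 7.22% were that much higher and 8.56% that much lower. Summed, the set stood at 5335 CPM in E3 against 6946 CPM in E4, a ratio of 0.38. Among the roles, the EGR genes had the highest summed ratio at 0.81, and the AP-1 genes followed at 0.46 and the Ier genes with Arc at 0.42. The feedback inhibitors stood at 0.34, the RNA decay genes at 0.30, the NR4A receptors at 0.22 and the other transcription factors at 0.17. The level over all cells also moves with the mix of classes. With clusters given equal weight, the median was 0.16 and 9 of the 34 members were at least 25% higher. The share of all genes under that weighting is not given.

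Microglia-like cells, with the most UMIs of the set, had a median ratio of 0.29 over 30 members against 0.06 over all genes. Of the 30, 14 were at least 25% higher in E4, beside 11% of all genes, and 0 were that much lower, beside 4.03%. Ier3 had the highest ratio, with 48.1 CPM in E3 and 86.2 CPM in E4 (0.84, 0.71 to 0.98), and Myc came next at 0.82 (0.57 to 1.06). Egr1 stood at 449 and 723 CPM (0.69, 0.64 to 0.73) and Fosb at 163 and 263 CPM (0.69, 0.61 to 0.76). Of the feedback genes, Nfkbiz stood at 0.66, Dusp1 at 0.53 and Socs3 at 0.46, and of the AP-1 genes Fos stood at 0.46, Jun at 0.35, Junb at 0.30 and Jund at 0.24. Egr2 (80 and 162 UMIs) and Gem (58 and 127 UMIs) stood at 0.48 (0.08 to 0.88) and 0.59 (0.13 to 1.06). Each AP-1 and EGR gene with enough UMIs was thus higher in E4, although Egr3, at 0.04 (-0.38 to 0.47), could not be told from no difference at this depth. Lower in E4, with intervals below 0, were Rgs1 (194 and 161 CPM, -0.27, -0.35 to -0.19), Klf2 (532 and 488 CPM, -0.13) and Zfp36l1 (680.0 and 634 CPM, -0.10). Cebpb and Cebpd stood at -0.05 and -0.03 with intervals that hold 0. The transcription factors outside the AP-1, EGR and NR4A groups hardly moved as a sum, at 1333 and 1324 CPM.

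Most UMIs of the set in microglia-like cells lay in the chemokine cluster, at 125598 of 179276 in E3 and 227361 of 315703 in E4. The summed level of the class therefore leans on that cluster, whereas the median ratio was above 0 with and without it. Without that cluster the median over 30 members was 0.29, and 11 were at least 25% higher, beside 12.7% of all genes in those cells. Within the cluster alone the median was 0.24 and 14 were at least 25% higher, beside 11.4%. It held 1057 of 3269 microglia-like cells in E3 and 1305 of 3965 in E4. In each of the 3 microglia-like clusters the summed ratio lay above 0, at 0.17 in the largest, 0.28 in the chemokine cluster and 0.15 in the smallest. The summed microglial markers stood at 30316 CPM in E3 against 30508 CPM in E4 microglia-like cells.

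**Figure D5:**
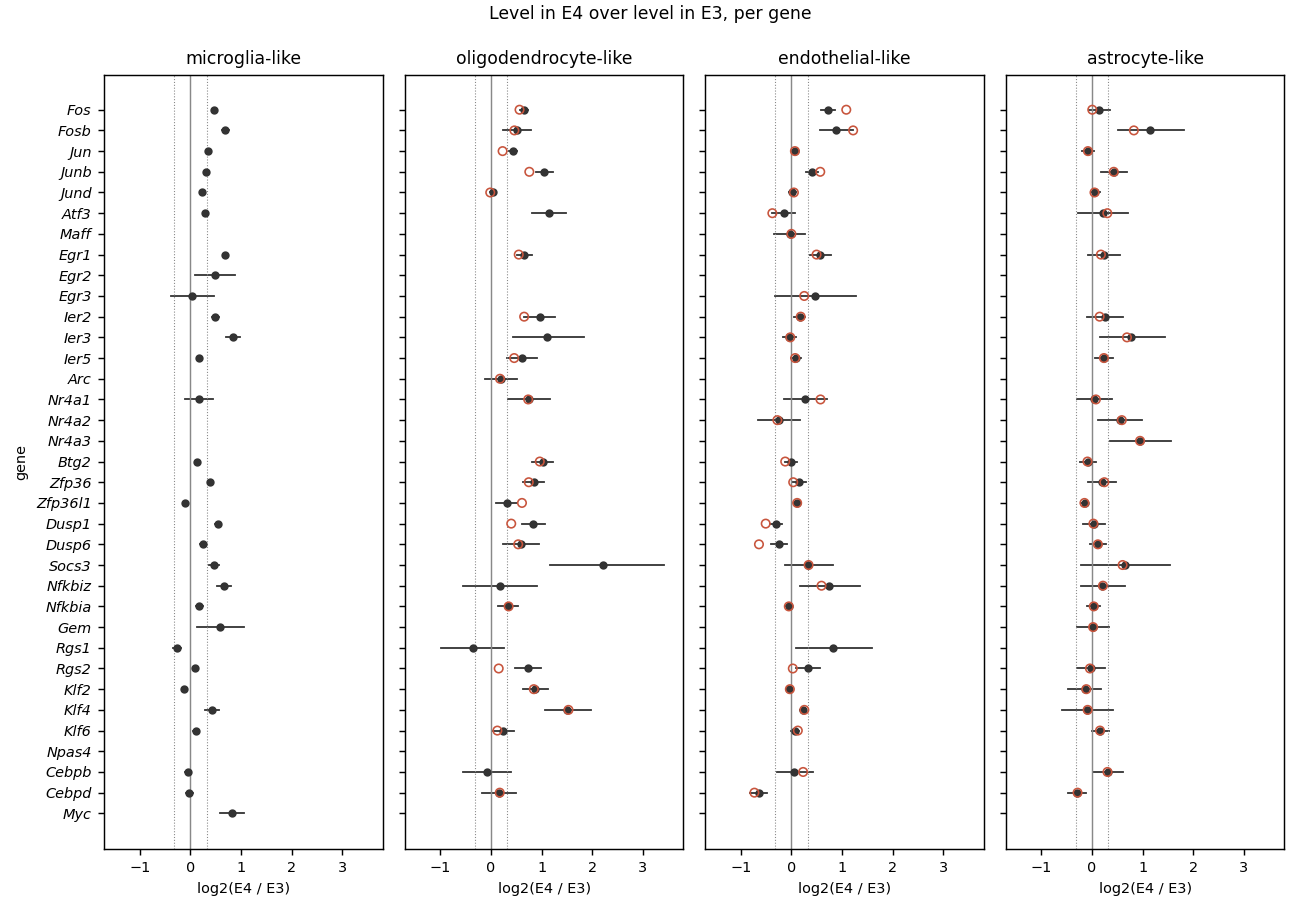
Ratio of the level in E4 to that in E3 (horizontal axis, log2) for each gene with at least 50 UMIs in the class, in 4 classes, where lines are exact 95% intervals for counting error, dotted lines mark the fold counted in the text, and open circles give the ratio without cells holding at least 10 microglial marker UMIs. Most points lie right of 0 in microglia-like and oligodendrocyte-like cells, whereas the other 2 panels hold points on both sides of 0. In endothelial-like cells Fos, Fosb, Junb, Egr1, Rgs1 and Nfkbiz lie past the right dotted line with intervals above 0 and Cebpd lies past the left one, and in astrocyte-like cells Fosb, Nr4a3, Ier3, Nr4a2 and Junb lie past the right one in the same way.

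Macrophage-like cells, with 171 E3 and 187 E4 cells, were below the 200 cells per library set for a list of ratios, and their summed levels are given instead. The AP-1 genes stood at 10465 and 11480 CPM in them (ratio 0.13, 0.09 to 0.18), the EGR genes at 552 and 797 CPM (0.53, 0.33 to 0.73), and the other transcription factors at 2471 and 2339 CPM (-0.08, -0.18 to 0.02). In the meningeal-like cells, also below that number, the summed level was lower in E4, at 3749 and 3415 CPM (-0.13, -0.18 to -0.09), but not in every role. The RNA decay genes stood there at 344 and 404 CPM (0.23, 0.08 to 0.39) and the NR4A receptors at 71.2 and 79.0 CPM (0.15, -0.20 to 0.50). In ependymal-like cells it stood at 2792 and 2836 CPM (0.02, -0.03 to 0.07), so that the higher level in E4 was not shared by every class.

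In endothelial-like cells the list as a whole had a median of 0.09 over 29 members against 0.07 over all genes, and 8 were at least 25% higher, beside 12.7% of all genes, with 1 that much lower, beside 4.99%. Some AP-1 and EGR genes nevertheless stood well apart. Fos stood at 112 CPM in E3 against 184 CPM in E4 (0.72, 0.59 to 0.86), Fosb at 19.2 and 35.5 CPM (0.88, 0.56 to 1.22), Junb at 165 and 219 CPM (0.41, 0.29 to 0.52) and Egr1 at 54.2 and 80.5 CPM (0.57, 0.37 to 0.77). After thinning to 1000 UMIs per cell the Egr1 ratio was -0.17. Without the cells that held microglial UMIs the Fos levels were 46.4 and 98.3 CPM, a ratio of 1.08, and Fosb stood at 1.22. Leaving out the cells whose barcode occurred in both libraries, and clustering the rest anew, gave Fos a ratio of 0.55. That value therefore also holds any change in which cells were named endothelial-like. Of the Krüppel-like factors that were highest in this class, Klf2 stood at -0.06 (-0.09 to -0.02) and Klf4 stood at 0.23 (0.17 to 0.29). Cebpd was lower in E4, at 116 and 74.1 CPM (-0.65, -0.81 to -0.48), and Dusp1 was lower too, at 190.3 and 154 CPM (-0.31, -0.43 to -0.19). With the microglial UMIs out, Dusp1 stood at -0.51 and Dusp6, at 88.0 and 56.4 CPM, at -0.64 (-0.84 to -0.44).

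Astrocyte-like cells, the largest class, had a median of 0.16 over 28 members against 0.02 over all genes. Of these, 6 were at least 25% higher, beside 7.51% of all genes, and 0 that much lower, beside 5.56%. The summed level was almost the same in both, at 891 and 906 CPM (0.02, -0.01 to 0.06). Those that were higher were rare genes, namely Fosb (30 and 74 UMIs, 1.15, 0.52 to 1.81), Nr4a3 (36 and 77 UMIs, 0.94, 0.36 to 1.56), Ier3 (33 and 63 UMIs, 0.78, 0.15 to 1.43), Socs3 (19 and 33 UMIs, 0.64, -0.21 to 1.54) and Nr4a2 (75 and 122 UMIs, 0.55, 0.12 to 0.98), and the more frequent Junb (216 and 324 UMIs, 0.43, 0.18 to 0.69). The members with the most UMIs there, Zfp36l1, Jund and Jun, stood at -0.15, 0.07 and -0.07.

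In oligodendrocyte-like cells the median was 0.65 over 27 members against 0.07 over all genes, and 19 were at least 25% higher, beside 17.8% of all genes, with 1 that much lower, beside 4.86%. Fos stood at 263 and 413 CPM (0.65, 0.56 to 0.74), Junb at 70.9 and 147 CPM (1.05, 0.89 to 1.22), Btg2 at 43.8 and 88.8 CPM (1.02, 0.81 to 1.23) and Klf4 at 9.09 and 25.9 CPM (1.51, 1.07 to 1.97). The highest ratio, 2.20 (1.17 to 3.41), was that of Socs3, from 9 and 52 UMIs, of which 1 and 9 were left without the cells that held microglial UMIs described next. Jund, at 629.9 and 650.2 CPM, stood at 0.05 (-0.02 to 0.11), and Arc at 0.20 (-0.12 to 0.52). Microglial markers moved the same way in this class, at 1021 CPM in E3 against 1514 CPM in E4, with 44 and 80 cells at or above 10 such UMIs. Without those cells the markers stood at 193 and 203 CPM, the median was 0.54, and 15 of 21 members were at least 25% higher, beside 14.7% of all genes in those cells. Fos then stood at 226 and 335 CPM (0.56, 0.46 to 0.67), Junb at 35.5 and 59.96 CPM (0.76, 0.51 to 1.01) and Klf4 at 1.53 (0.99 to 2.11). The share of these cells with a Fos UMI was 20.3% in E3 (17.6 to 23.3%) and 24.2% in E4 (21.5 to 27.0%), and that with an Egr1 UMI 11.3% (9.23 to 13.7%) and 18.4% (15.9 to 21.0%). Klf4 rested on few cells, since 10 cells held 25 of its 36 UMIs in E3 and 74 of 124 in E4. For Fos 10 cells held 448 of 1244 UMIs in E3 and 668 of 2193 in E4. The counting intervals do not cover this spread between cells.

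Neuroprogenitor-like cells had the highest median, 0.74 over 21 members against 0.05 over all genes, with 17 at least 25% higher, beside 19.7% of all genes, and 0 that much lower, beside 10.8%. Here the microglial markers stood at 1110.3 CPM in E3 against 1713 CPM in E4, with 15 and 25 cells at or above 10 such UMIs. Without those cells the markers were equal at 205 CPM, the median was 0.15, and 6 of 13 members were at least 25% higher, beside 18% of all genes. They were Fos (59.0 and 184 CPM, 1.64, 1.32 to 1.97), Dusp1 (32.7 and 78.3 CPM, 1.26, 0.81 to 1.73), Egr1 (248 and 545 CPM, 1.14, 0.98 to 1.30), Ier2 (72.4 and 129 CPM, 0.84, 0.52 to 1.16), Klf6 (43.2 and 64.6 CPM, 0.58, 0.16 to 1.01) and Jun (227 and 312 CPM, 0.46, 0.27 to 0.64). Fos in E4 rested on few cells, since 10 cells held 176 of its 364 UMIs, against 40 of 101 in E3. Egr1 was spread more widely, with a UMI in 25.7% of E3 (21.2 to 30.7%) and 45.9% of E4 (40.6 to 51.2%) of these cells. Junb, Btg2, Ier5 and Jund lay near or below 0, at -0.10, -0.16, 0.00 and 0.09.

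In choroid plexus-like cells the median was 0.32 over 23 members against 0.04 over all genes, with 12 at least 25% higher, beside 12.6% of all genes, and 2 that much lower, beside 8.39%. Without the 30 E3 and 37 E4 cells at or above 10 microglial UMIs the median turned to -0.15 and 3 of 18 members were at least 25% higher, beside 9.66% of all genes. Zfp36, at 14.5 and 38.7 CPM in every cell (1.41), then had 28 and 37 UMIs left, and Egr1, at 12.6 and 27.4 CPM (1.12), had 29 and 30. Klf2 stood lower in E4 both ways, at -0.42 (-0.73 to -0.12) with every cell and -0.97 (-1.40 to -0.55) without those cells.

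Taken gene by gene over the 6 classes of at least 200 cells per library, with every cell counted, Fosb was at least 25% higher in E4 in 6 of 6 classes, Junb and Egr1 in 5 of 6, and Socs3 in all 5 classes in which it was measured. Fos, Jun, Ier2, Zfp36 and Dusp1 were so in 4 of 6. The interval of Socs3 held 0 in astrocyte-like, endothelial-like and neuroprogenitor-like cells. Jund was above 0 in each of the 6 but past 25% in 1, and Klf6 was past it in 1 of 6. Rgs1 was at least 20% lower in 2 of the 4 classes in which it was measured and at least 25% higher in 1, and Cebpd was at least 20% lower in 1 of 6. Klf2 was at least 20% lower in 1 of 6 and at least 25% higher in 2, namely oligodendrocyte-like (0.88) and neuroprogenitor-like cells (2.26). Some of these counts rested on the cells that held at least 10 microglial UMIs. Without them Junb stood at -0.10 in neuroprogenitor-like and -0.14 in choroid plexus-like cells, Egr1 stood at -0.17 in choroid plexus-like cells, Fosb had 6 and 8 UMIs left there, and Socs3 had 1 and 9 UMIs left in oligodendrocyte-like cells. In choroid plexus-like cells Jun then stood at -0.15, Dusp1 at -0.13, Ier2 at -0.71 and Zfp36 at 0.19, and in oligodendrocyte-like cells Jun stood at 0.23. In neuroprogenitor-like cells Fosb had 2 and 11 UMIs left and Zfp36 17 and 32, and Socs3 stood at 0.02. The share of all genes at least 25% higher in a single class ran from 7.51% to 19.7%. The share of all genes past that fold in several classes was not computed, so these counts do not show how the members compare with all genes. The classes share both libraries, so these counts are no independent repeats.

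Other lists that bear on the handling of the cells were set beside the set in microglia-like cells. The heat shock and chaperone genes stood at 4113 CPM in E3 against 4059.5 CPM in E4. Of the 14, 4 were higher in E4, 0 by 25%, and 3 were at least 20% lower, with Hspa1b at 28.4 and 15.3 CPM (-0.89, -1.12 to -0.66) and Hspb1 at 9.32 and 6.04 CPM (-0.63, -1.01 to -0.24). The most abundant of them, Hsp90ab1, Hspa8 and Hspa5, stood at 0.05, -0.04 and -0.02. Of 9 chemokine and cytokine genes measured, 9 were higher in E4, 6 by at least 25%, with Cxcl10 at 6.14 and 21.4 CPM (1.80, 1.45 to 2.17), Tnf at 9.63 and 21.6 CPM (1.16, 0.87 to 1.47) and Ccl12 at 51.4 and 82.7 CPM (0.69, 0.55 to 0.82), while the most abundant, Ccl4, stood at 0.08 (0.03 to 0.13). Of all 12021 genes measured in this class, 7628 were higher in E4, and the counts of higher genes here are to be read beside that. Of 27 further early and primary response genes outside the set, 19 were higher and 8 lower, with a median of 0.18. Of the higher, 10 were so by at least 25%, and of the lower 2 by at least 20%. As a sum these further genes hardly moved, at 3107 and 3141 CPM (0.016, -0.003 to 0.034). The most abundant, Rhob, stood at 0.02 (-0.01 to 0.04). Of 21 kinases and factors that act upstream of the set, such as Creb1, 16 were higher and 0 by 25%, with a median of 0.08. Across classes the heat shock genes were ordered differently from the set, with the highest sum in ependymal-like cells (19038.5 and 19789 CPM) and 7367 and 7650.1 CPM in endothelial-like cells. The genes that overlap ribosomal RNA stood at 27312 CPM in E3 against 11560 CPM in E4 microglia-like cells, and with these, mitochondrial, haemoglobin and member genes taken out of the totals the median ratio of the set there was 0.28. The set and the chemokines were thus higher in the E4 library in microglia-like cells, and the heat shock genes and the sum of the further early genes were not. How much of any of these follows the warm digestion was not tested, since both libraries had it.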

How the data were processed

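Single cells of 1 pooled library per genotype were measured with 10x Genomics 3′ chemistry. Per the labels, the authors aligned the reads to mm10 and made the deposited UMI counts per gene and cell with Cell Ranger, version 6.1.2 for E3 and 6.1.1 for E4, so that software version, pool and genotype cannot be told apart. No column was left unmapped to a sample.

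Barcodes were kept between 50 and 50000 UMIs when mitochondrial genes gave no more than 30% of them, following the study's limits. Counts were scaled to 10000 per cell and log-transformed, and 2000 variable genes without the 35 members, 20 principal components, 15 neighbours and Leiden resolution 1 gave the clusters (scanpy 1.11.5, igraph 0.11.9, scipy 1.17.1, numpy 2.4.6 and pandas 2.3.3 in Python 3.11.15). A cluster took a class name from at least 3 markers that were 2-fold above the other clusters and present in 20% of its cells. The study also removed small clusters of suspected doublets and analysed fewer cells than these limits leave, and that step was not repeated. No doublets were removed in the main analysis, since Scrublet marked 4.69% of E3 and 6.25% of E4 cells and leaving these out was an alternative. UMIs were summed per class and library. Levels were reported for classes of 100 cells per library and ratios for 200, and a gene needed 50 UMIs over both libraries. Shares per cell were taken after thinning to 1000 UMIs. Poisson and binomial intervals are exact. The scripts were tested on simulated counts.

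The members and lists were chosen with earlier results of these data known. All 35 members are named. Of each further list the 4 genes with the most UMIs, and those at least 1.5-fold apart with 200 UMIs, could be named, and of genes with a like pattern the 10 with the highest correlation in the library where it was lower, among genes found in 2% of thinned cells. Some genes that this rule reached are not reported here. Promoter sequences are from RefSeq on GRCm38.p6. The alternatives were leaving the members in the clustering, stricter cell limits, leaving out Scrublet doublets or shared barcodes, other totals, thinning, equal weight for clusters, other minimum counts and other folds, with the removal of cells holding microglial UMIs added after the data had been seen. With members left in, stricter limits, or doublets or shared barcodes left out, cells were clustered and named anew, so that class membership could also change.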

Additional observations from a re-analysis of the deposited data

How the results depend on the processing

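Of the single-gene ratios recomputed under the alternatives, 1151 stayed within their counting interval, 233 moved and 19 reversed. In microglia-like cells the median ratio ran from 0.28 to 0.32 over 9 alternatives, and 6 of 30 members passed at 1.5-fold. Unless a share of all genes stands beside it, a count in this section has no such share under the same setting. Such counts show how the number moved with the setting and not how the set compares with all genes. Over all cells, giving clusters equal weight lowered the median to 0.16 and the count of members at least 25% higher to 9, and 7 passed at 1.5-fold.

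In astrocyte-like cells the stricter cell limits gave a median of 0.56 and a count of 22. The class then held 1559.9 and 3066 CPM of microglial markers, and without cells holding at least 10 such UMIs the median was 0.06 with 4 of 26 members. Equal weight for clusters gave 0.010, with Nr4a2 at -0.22, and the count was 1 after thinning and 1 with at least 200 UMIs. In endothelial-like cells the count was 2 after thinning, where Egr1 stood at -0.17, and 4 with equal weight, with at least 200 UMIs and at 1.5-fold. In oligodendrocyte-like cells equal weight gave a median of 0.29, a count of 12 and Nfkbia at -0.048, and leaving out Scrublet doublets gave a count of 12.

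In choroid plexus-like cells the median was -0.018 without Scrublet doublets, -0.15 without cells of at least 10 microglial UMIs and -0.23 without those of at least 3. The counts were 3, 3 of 18 and 1 of 11, the last 2 beside 9.66% and 10.4% of all genes. The count was 1 after thinning and 6 at 1.5-fold. Without doublets Jun stood at -0.15, Dusp1 at -0.15 and Klf4 at -0.68. Without cells of at least 10 microglial UMIs Jun stood at -0.15, Junb at -0.14, Egr1 at -0.17, Ier5 at -0.13, Btg2 at -0.39, Dusp1 at -0.13 and Klf4 at -0.77. In neuroprogenitor-like cells the same 3 alternatives gave medians of 0.057, 0.15 and 0.12. The counts were 5, 6 of 13 and 6 of 13, the last 2 beside 18% and 17.8% of all genes. The count was 7 after thinning and 11 with at least 200 UMIs. Without doublets Junb stood at -0.040, Zfp36l1 at -0.011, Klf2 at -0.61 and Rgs2 at -0.33, and without cells of at least 10 microglial UMIs Junb stood at -0.10 and Rgs2 at -0.55. The cause was not tested.

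The count of members tied to 1 class, 8 in the main analysis, beside 30.1% of all genes, was 18 at 1.5-fold, beside 42.4%, and 22 among classes of at least 200 cells, where macrophage-like cells drop out, beside 34.6%. It was 6 after thinning, beside 21.5%, and 12 under the stricter limits, beside 28.7%. The leading class stood 1.75-fold over the next in E3 and 1.53-fold in E4 under the stricter limits, and 1.37-fold and 1.16-fold without doublets. The median number of members per macrophage-like cell was 10 and 9 under the stricter limits, 7 in E3 without doublets and 8 in E4 with members left in the clustering. The removal of cells by microglial UMIs was chosen after seeing the data. No paired analysis was possible because each genotype is 1 library of pooled mice and no result comes from a test. Depth limits the rare members, of which Npas4 could be compared in no class.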
